A study of Arabidopsis thaliana with 4 samples.

Results

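Plastid transcripts of the NADH dehydrogenase-like (NDH) complex were followed in whole 2-week-old Arabidopsis thaliana seedlings on Affymetrix ATH1 arrays. On these a group of short probes, the probe set, measures each transcript. The genes were all those of the single-copy plastid regions that carry an ndh name and a probe set of their own: ndhA, ndhC, ndhD, ndhE, ndhF, ndhG, ndhH, ndhI, ndhJ and ndhK, which are 10 of the 13356 genes with a named probe set. Each is read by 1 probe set. ndhB lies in the inverted repeat, its probe set is assigned to more than 1 gene entry, and it was not used.

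There were 4 arrays, 1 per genotype. NO is the wild type of the Nossen accession, and duf761-1 is a mutant in Nossen carrying the line code RATM11-0975-1_H. Col-0 is the Columbia wild type, and OE6 is a transgenic line in Columbia that overexpresses DUF761-1, with the promoter and the number of independent lines not given in the sources used here. DUF761-1 is named for a protein domain of unknown function. All seedlings grew on half-strength (1/2) MS medium with 2% sucrose at 22 °C with 16 h of light (100 µmol per m2 per s) alternating with 8 h of dark. With 1 array per genotype there are no replicates, so ratios are given without a test, p-value or standard error, and so few arrays limit how precise a ratio can be.

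The NDH complex sits in the thylakoid membrane and is a relative of respiratory complex I. It passes electrons from ferredoxin back to the plastoquinone pool, which feeds cyclic electron flow around photosystem I and chlororespiration. Its core is encoded in the plastid. NdhA, NdhC, NdhD, NdhE, NdhF and NdhG belong to the membrane arm, and NdhH, NdhI, NdhJ and NdhK to the stromal arm, where iron-sulfur clusters carry the electrons. Many further subunits, and the proteins that assemble the complex and process its transcripts, are encoded in the nucleus. The genes lie in 3 places. ndhH, ndhA, ndhI, ndhG, ndhE and ndhD form a transcription unit that also holds psaC, a photosystem I gene. ndhC, ndhK and ndhJ form another, and ndhF stands alone.

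Values are linear MAS5 signals. Signals under a floor of 102, which is the 40th percentile over all non-control values, were raised to it before log2 was taken. On all 4 arrays, 9 of the 10 genes exceeded this floor. The exception was ndhF, an antiporter-like subunit gene, with signals of 16.1 in NO and 36.7 in duf761-1, against 16.4 in Col-0 and 19.8 in OE6. It was below the floor everywhere, so no ratio is given for it. Among tissue markers, the 5 shoot markers with a named probe set lay between 5895 and 25285 on all arrays. Of 3 root markers, PYK10 lay between 15882 and 16513, EXPA18 between 188 and 426, and EXPA7 between 79.1, under the floor, and 196. In whole seedlings, fewer cells of a type and less RNA per cell cannot be told apart. The labels give no locus for DUF761-1, so its own level was not read. As a sign of RNA integrity, 3′ over 5′ control signal lay between 0.754 and 0.887 for GAPDH and between 1.08 and 1.27 for ubiquitin. For actin it was 0.279 on NO and 0.267 on duf761-1, against 1.61 on Col-0 and 2.06 on OE6.

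**Figure D1:**
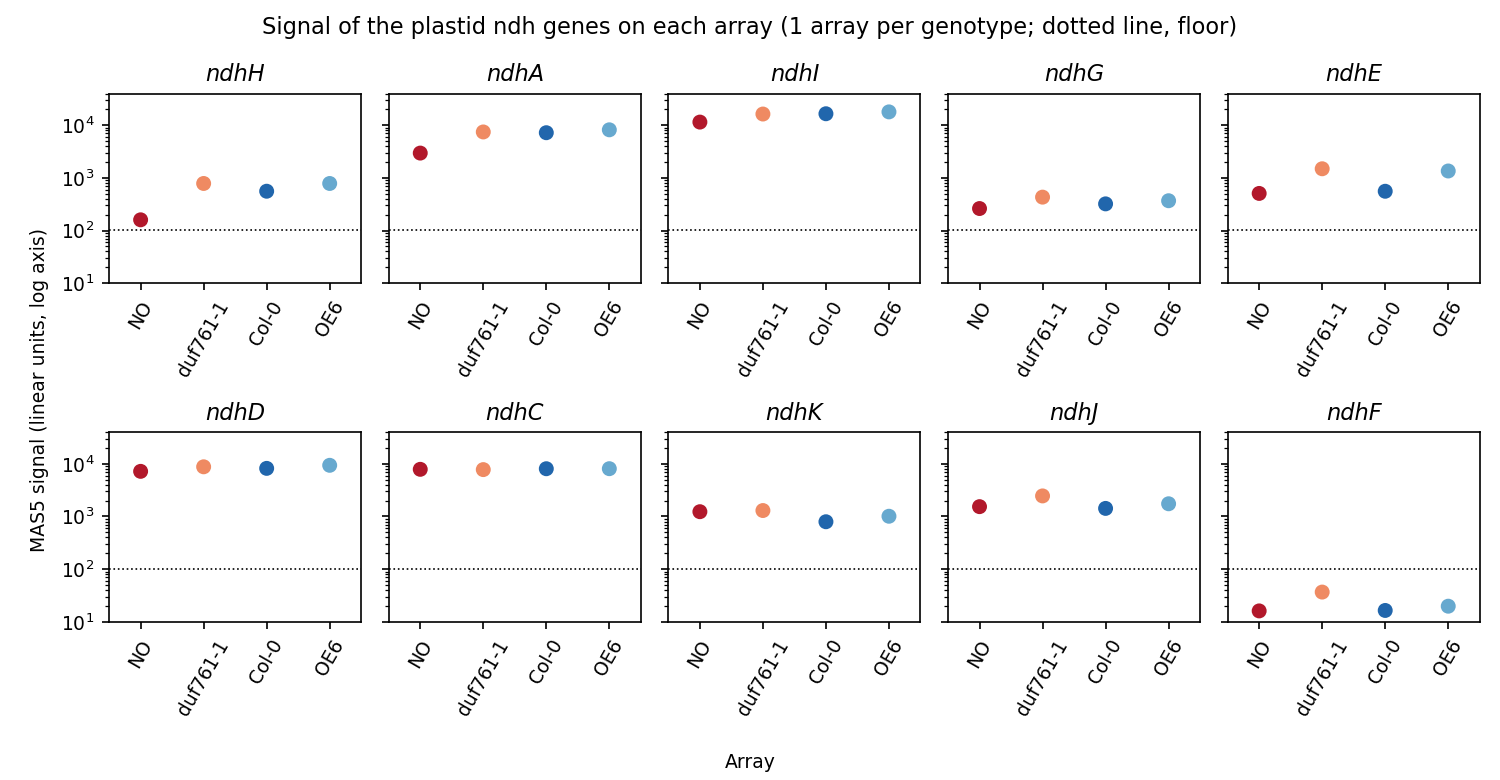
MAS5 signal (linear units on a log axis) of each of the 10 plastid ndh genes on the 4 arrays, 1 point per array. The dotted line is the floor of 102. ndhH and ndhA are low on NO alone, ndhE is high on duf761-1 and OE6, ndhC is level, and ndhF lies below the floor on every array.

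The mutant was first set against its own wild type, NO. On the duf761-1 array, 3 of the 9 measured ndh genes (ndhH, ndhE and ndhA) were higher by 2-fold or more, and 0 were lower by as much. The same held for 0.663% (higher) and 0.225% (lower) of all 7994 genes above the floor on at least 1 array. The median log2 ratio of the 9 ndh genes was 0.68, where that of all 7994 genes was 0.00. Plastid-encoded genes as a whole were higher on duf761-1 than on NO. Of the 58 other measured ones, 20 were at least 2-fold higher and 1 lower, with a median of 0.65. The ndh median thus lay close to that of the other plastid-encoded genes. The median signal of the 67 measured plastid-encoded genes was 2144 in NO and 3751 in duf761-1, against 4746 in Col-0 and 5360 in OE6. The 5 shoot markers had ratios from -0.08 to 0.03, and the root markers had -0.74 for EXPA18, -0.04 for PYK10 and at least 0.50 for EXPA7, and their part in the ndh values was not tested.

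ndhH encodes a stromal arm subunit next to the quinone site. Its signal was 159.6 in NO and 782 in duf761-1, against 557 in Col-0 and 782 in OE6. NO alone was low, and the other 3 arrays lay within 0.49 of each other on the log2 scale. The log2 ratio of duf761-1 over NO was 2.29 (4.90-fold). The NO signal is close to the floor, and the ratio was 1.44 if the floor was raised to the 60th percentile and 1.76 if it was added as a pseudocount.

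ndhA, a membrane subunit at the junction of the arms, had the same shape at a signal far from the floor. Its signal was 2954 in NO and 7442 in duf761-1, against 7199.99 in Col-0 and 8175 in OE6. Again NO alone was low, and the other 3 arrays lay within 0.18 on the log2 scale. The log2 ratio of duf761-1 over NO was 1.33 (2.52-fold), and over the 12 other processing settings it stayed between 1.30 and 1.39.

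ndhE encodes a small membrane subunit, and its arrays paired differently. Its signal was 506 in NO and 1488 in duf761-1, against 556 in Col-0 and 1350.4 in OE6. Both wild types were low and both lines were high. The wild types differed by 0.14 on the log2 scale, as did the lines, and the lower line was 2.43-fold above the higher wild type. The log2 ratio of duf761-1 over NO was 1.56 (2.94-fold).

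The next genes by size were ndhG and ndhJ, neither of which reached 2-fold. ndhG, another membrane subunit gene, had signals of 261 in NO and 430.3 in duf761-1, against 321 in Col-0 and 368 in OE6. The signal of ndhJ, a stromal arm subunit gene, was 1537 in NO and 2457 in duf761-1, against 1423 in Col-0 and 1743 in OE6. For both genes the duf761-1 array was the highest of the 4. The log2 ratios of duf761-1 over NO were 0.72 for ndhG and 0.68 for ndhJ.

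ndhI, whose product carries iron-sulfur clusters of the stromal arm, had signals of 11456 in NO and 16297 in duf761-1, against 16502 in Col-0 and 17901 in OE6. The signals of ndhD, an antiporter-like subunit gene whose start codon is made by RNA editing, were 7197 in NO and 8779.8 in duf761-1, against 8199 in Col-0 and 9372 in OE6. Both genes were lowest on NO and highest on OE6. Their log2 ratios of duf761-1 over NO were 0.51 and 0.29.

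On duf761-1, ndhC and ndhK stayed near their NO level. ndhC, a small membrane subunit gene, had signals of 7863, 7766, 8071 and 8087 on NO, duf761-1, Col-0 and OE6, so its highest and lowest arrays were 1.04-fold apart. The signals of ndhK, which encodes an iron-sulfur subunit next to NdhH, were 1233, 1297, 794 and 1010.2 on the same arrays, with Col-0 the lowest. Their log2 ratios of duf761-1 over NO were -0.02 and 0.07, and that of ndhC turned to 0.04 when arrays were scaled on the spike-in probe sets.

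By place in the complex the values overlapped. In the membrane arm, 2 of 5 measured genes were at least 2-fold higher on duf761-1, with a median log2 ratio of 0.72. In the stromal arm it was 1 of 4, with a median of 0.59. By transcription unit they lay further apart. In the unit from ndhH to ndhD, 3 of 6 genes were at least 2-fold higher and the median was 1.03, with ratios from 0.29 to 2.29. In the unit of ndhC, ndhK and ndhJ, 0 of 3 were, and the median was 0.07. Over all 7994 genes 0.663% were at least 2-fold higher, so a count of 0 of 3 is near the background. This difference between the units was not tested.

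Within the unit from ndhH to ndhD the ratio was not uniform. rps15, a ribosomal protein gene, lies next to ndhH in the gene order, and its signal was 117 in NO and 325 in duf761-1, against 369.98 in Col-0 and 505 in OE6. Its log2 ratio of duf761-1 over NO was 1.47, followed along the genome by 2.29 at ndhH, 1.33 at ndhA and 0.51 at ndhI. The ratio then went up to 0.72 at ndhG and 1.56 at ndhE. psaC is the next gene and lies between ndhE and ndhD, with signals of 2234 in NO and 2727 in duf761-1, against 1878 in Col-0 and 1868 in OE6. Its ratio was 0.29, as was that of ndhD and of ccsA, a cytochrome c assembly gene beyond it. The genes therefore formed 2 high points, at ndhH and at ndhE, with lower ratios between and after them. The NO signals of rps15 and ndhH are close to the floor. With the floor at the 60th percentile ndhH was at 1.44, nearer to ndhA at 1.33 and below ndhE at 1.56.

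**Figure D2:**
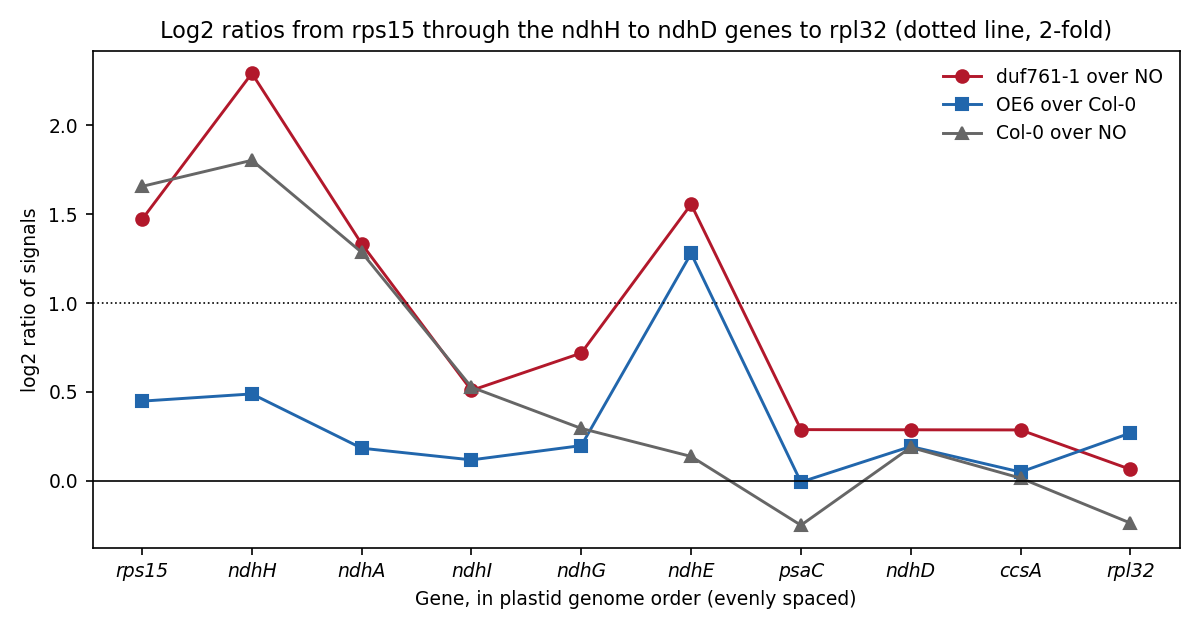
Log2 ratio of signals (y axis) for the genes from rps15 to rpl32 in plastid genome order, evenly spaced (x axis), in the 3 comparisons, 1 array per genotype. The ratio of duf761-1 over NO peaks at ndhH (2.29) and ndhE (1.56), OE6 over Col-0 peaks at ndhE (1.28), and Col-0 over NO falls from ndhH (1.80) to psaC (-0.25). The comparisons with NO share that array, on which rps15 and ndhH have signals close to the floor.

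The overexpressor was set against Columbia. Of the 9 measured ndh genes, ndhE was the 1 at least 2-fold higher and 0 were at least 2-fold lower, where 0.475% of the 7994 genes were higher and 0.475% lower. Its log2 ratio was 1.28 (2.43-fold), the highest of the 67 measured plastid-encoded genes, and over the 12 other settings it lay between 1.14 and 1.33. The median of the 9 ndh genes was 0.20, beside 0.21 for the 58 other plastid-encoded genes and -0.01 for all 7994. None of the 58 others reached 2-fold.

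All 8 other measured ndh genes were within 2-fold between OE6 and Col-0. ndhH had a log2 ratio of 0.49, ndhK one of 0.35 and ndhJ one of 0.29. ndhG, ndhD, ndhA and ndhI lay between 0.12 and 0.20, and ndhC at 0.00, or -0.11 under quantile normalization. For scale, the ratios of a pair of probe sets of the same gene, compared over 60 genes, had an SD of 0.24 per probe set in this comparison and of 0.28 in duf761-1 over NO. Beyond 2 such SDs lay 2 of the 9 ndh genes in OE6 over Col-0 (ndhE and ndhH), where 9.78% of all genes did. There 2 SDs are 0.48, and ndhH, at 0.49, was at 0.40 with spike-in scaling and 0.42 with the pseudocount. In duf761-1 over NO, 5 of the 9 lay beyond 2 SDs (ndhH, ndhE, ndhA, ndhG and ndhJ), where 6.6% of all genes did. Here 2 SDs are 0.57, and the median of the 58 other plastid-encoded genes, 0.65, was beyond that too. With the pseudocount ndhG was at 0.55. This SD holds measurement noise within arrays and leaves out differences between plants and labelling reactions.

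ndhE was the 1 gene of all 7994 (0.0125%) at least 2-fold higher in both comparisons, which share no array. It had both lines at least 2-fold above both wild types, a condition that only a gene 2-fold higher in both comparisons can meet. The direction was the same in the mutant and in the overexpressor. In a plot of the overexpressor ratio against the mutant ratio, ndhE stands alone past 2-fold on both axes, while ndhH and ndhA are past it on the mutant axis and within it on the other.

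**Figure D3:**
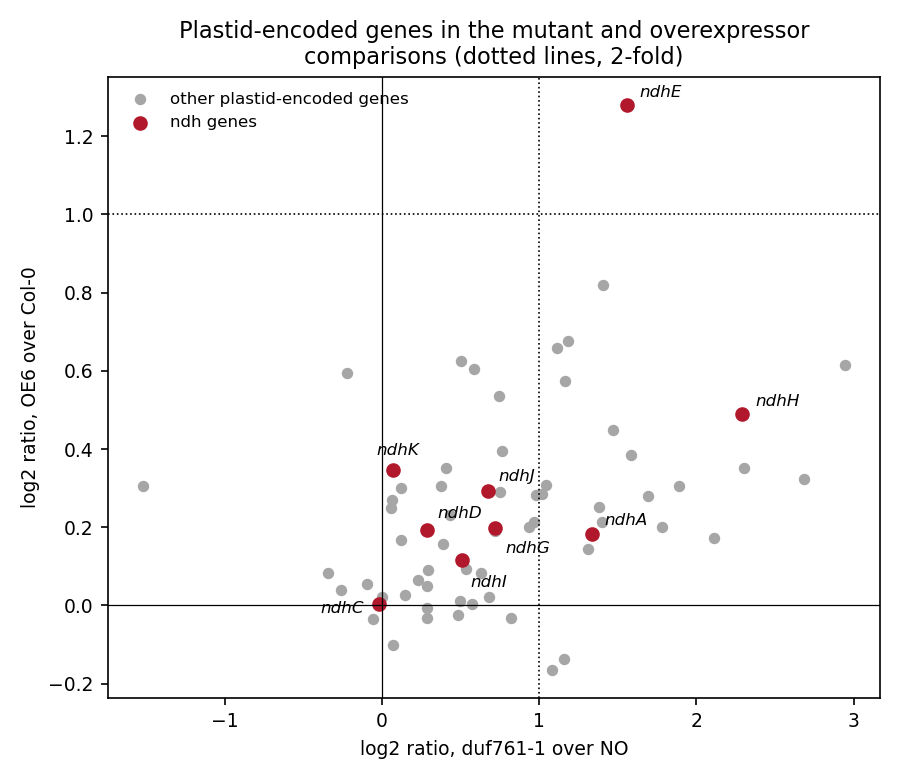
Log2 ratio of OE6 over Col-0 (y axis) against that of duf761-1 over NO (x axis) for the 67 measured plastid-encoded genes, 1 point per gene, with the 9 measured ndh genes named. ndhE, at 1.56 and 1.28, is past 2-fold (dotted lines) on both axes. ndhH and ndhA are past it on the x axis only.

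The wild types were compared because the lines are in different backgrounds. In any comparison between accessions, a sequence difference under a probe could also change the signal, and this was not tested. ndhH and ndhA were at least 2-fold higher on Col-0 than on NO, with log2 ratios of 1.80 and 1.29, and 0 of the 9 were at least 2-fold lower. Here 9.02% of the 7994 genes were at least 2-fold higher and 5.09% lower. Tissue markers moved in this comparison too: all 5 shoot markers had a ratio below 0 (median -0.52, from -0.63 to -0.18), and the root markers had -1.18 for EXPA18, -0.04 for PYK10 and at least 0.60 for EXPA7. Their part in the ndh values was not tested. The ratio of ndhH fell to 0.95 with a floor at the 60th percentile. ndhI had a ratio of 0.53, ndhG one of 0.29 and ndhD one of 0.19. That of ndhK was -0.63, the lowest of the 67 measured plastid-encoded genes. ndhE had a ratio of 0.14 (-0.03 under median scaling), ndhC one of 0.04 (-0.13 under median scaling) and ndhJ one of -0.11 (0.30 with spike-in scaling). Scaling moved the median of all 7994 genes in this comparison by -0.12 (median scaling) and by 0.38 (spike-ins), so values of this size have no settled sign. In gene order the ratio of Col-0 over NO went down at each step from ndhH through ndhA, ndhI, ndhG and ndhE to psaC at -0.25. With the floor at the 60th percentile ndhH was below ndhA.

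This comparison and duf761-1 over NO share the NO array, so their values are not independent. NO had the lowest signal of the 4 arrays for 6 of the 9 measured ndh genes and for 37 of the 58 other plastid-encoded genes, where 26.6% of all 7994 genes were lowest on NO. ndhH and ndhA were among 20 genes (0.25%) for which NO was at least 2-fold below each of the other 3 arrays, and 14 of those 20 were plastid-encoded. duf761-1 has the Nossen background too, and its signal was above that of Col-0 by 0.49 for ndhH and by 0.05 for ndhA on the log2 scale. A low NO array and a higher duf761-1 level cannot be told apart for these genes. For ndhE, whose NO and Col-0 signals were close, duf761-1 was 1.42 above Col-0 on the log2 scale. The duf761-1 and Col-0 arrays differ in background too, and the reason for this difference was not tested.

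Set beside the other plastid-encoded classes, the ndh genes lay between photosynthesis genes and genes for gene expression. Photosynthesis genes here are those of the photosystems, cytochrome complex and ATP synthase, and rbcL. In duf761-1 over NO they had a median log2 ratio of 0.41, with 4 of 33 at least 2-fold higher and 1 lower. Genes for ribosomal proteins, polymerase and maturase had one of 1.31 with 13 of 19 higher. In OE6 over Col-0 the medians were 0.08 and 0.32, and in Col-0 over NO they were 0.01 and 1.66, beside 0.20 and 0.19 for the ndh genes. The 6 remaining genes had medians of 1.19 in duf761-1 over NO, 0.21 in OE6 over Col-0 and 0.54 in Col-0 over NO. These classes were not tested against each other.

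**Figure D4:**
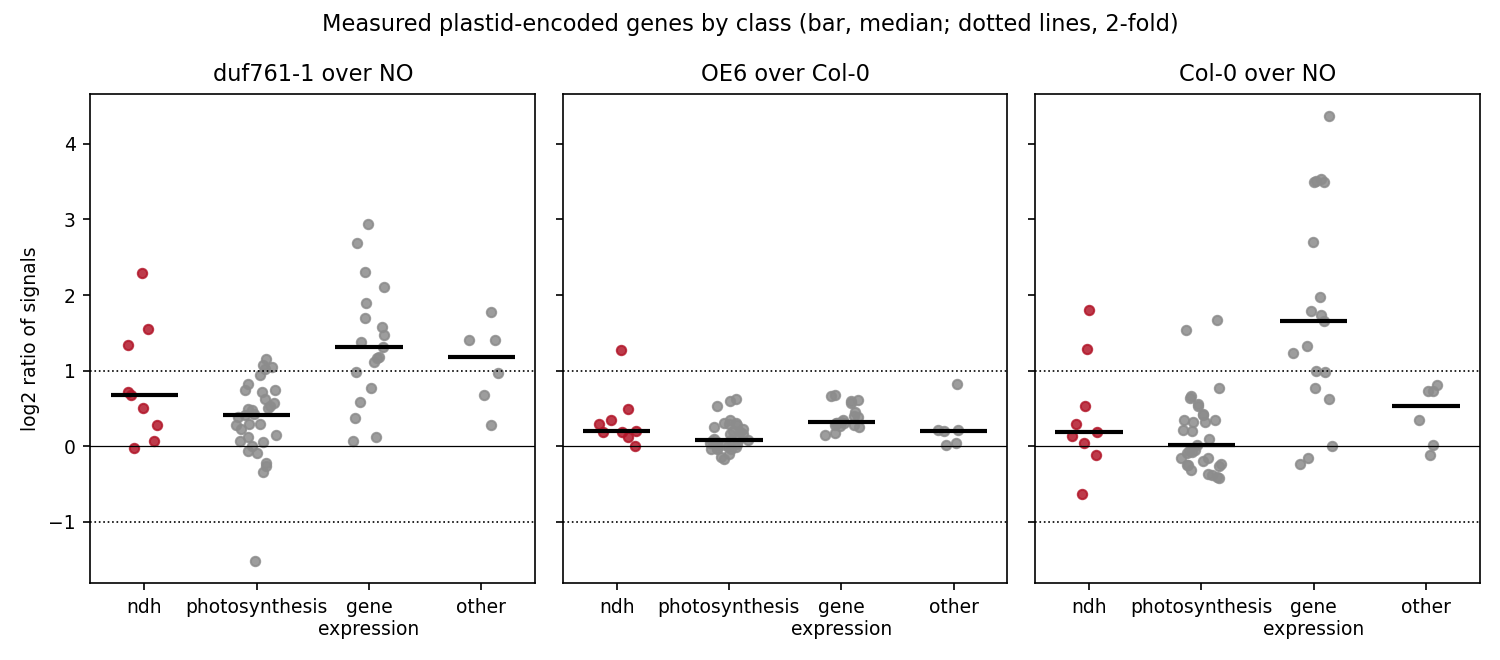
Log2 ratio of signals (y axis) of the measured plastid-encoded genes by class (x axis), 1 point per gene and 1 panel per comparison, with a bar at each median. In duf761-1 over NO the ndh genes have a median of 0.68, between photosynthesis genes at 0.41 and genes for gene expression at 1.31. Points are spread sideways to show them.

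Likeness of pattern was measured as the Euclidean distance between log2 signals centred on each gene's mean over the 4 arrays, among 968 genes with a symbol and above the floor on every array. The median ndh profile was -0.38 for NO and 0.31 for duf761-1, against -0.03 for Col-0 and 0.17 for OE6. Nearest to it were psbK, a photosystem II subunit gene (distance 0.051), the glycosyltransferase gene UGT73B1 (0.119) and the plastid envelope protein gene cemA (0.154). Next were psbI, also of photosystem II (0.167), and the nuclear gene PyrD (0.187). For ndhA the nearest were the plastid polymerase gene rpoC2 (0.075) and rpl20 (0.365), a ribosomal protein gene. For ndhH they were the ribosomal protein genes rps19 (0.581) and rps15 (0.631). For ndhE they were ycf3, a photosystem I assembly gene (0.531), and rps2 (0.674). ycf3 had signals of 353 in NO and 937 in duf761-1, against 326 in Col-0 and 576 in OE6. With 4 arrays such distances only describe these profiles.

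The nucleus-encoded part of the complex was read through few genes. Of 20 listed nuclear subunit genes 3 had a named probe set, all above the floor, and 0 of the 3 were 2-fold apart in any of the 3 comparisons. Over all 7994 genes, 0.663% were higher and 0.225% lower in duf761-1 over NO, 0.475% and 0.475% in OE6 over Col-0, and 9.02% and 5.09% in Col-0 over NO, so counts of 0 in lists this short are near the background. NdhS, the ferredoxin-binding subunit, had log2 ratios of -0.20 in duf761-1 over NO and -0.14 in OE6 over Col-0. NdhN, of the stromal arm, had ratios of -0.06 and -0.02, and NdhL, a membrane anchor of that arm, had 0.20 and 0.05. On Col-0 over NO these genes had ratios of 0.21, 0.87 and 0.58.

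Of 8 listed assembly genes 3 were measured. CRR42, needed to assemble the stromal arm, had signals of 255 in NO and 192 in duf761-1, against 701 in Col-0 and 643 in OE6. It was low on both Nossen arrays, with log2 ratios of -0.41 in duf761-1 over NO, -0.12 in OE6 over Col-0 and 1.46 in Col-0 over NO. CRR41, of the same assembly pathway, had 0.16, 0.27 and 0.33, and HCF101, an iron-sulfur cluster carrier, had -0.13, -0.20 and -0.21.

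Of 22 listed genes for ndh RNA processing and plastid transcription, 6 had a named probe set and 4 were measured, with 0 of the 4 past 2-fold in any comparison, a count that is again near the background over all genes. These 4, CRR21, CRR22, CRR28 and OTP84, encode RNA editing factors with sites in ndh transcripts. CRR21, which acts on ndhD, had log2 ratios of 0.20 in duf761-1 over NO and 0.02 in OE6 over Col-0. CRR22, which also acts on ndhD, had -0.39 and 0.65, at signals of 115 to 180.2 over the 4 arrays, not far above the floor. Of 9 listed genes for other routes into the plastoquinone pool 2 were measured. PGRL1B, of the PGR5-dependent cyclic route, had signals of 292 in NO and 376 in duf761-1, against 844 in Col-0 and 545 in OE6. Its ratios were 0.37 in duf761-1 over NO, -0.63 in OE6 over Col-0 and 1.53 in Col-0 over NO. NDC1, a plastid NAD(P)H dehydrogenase outside the complex, had -0.09, 0.02 and -0.80.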

How the data were processed

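RNA from whole seedlings of 4 genotypes was read on 1 ATH1 array each. The authors deposited linear signal intensities from MAS5 (per the submitters' processing notes; no version stated). The series text speaks of labelled cDNA and the sample labels of cRNA from 6 µg of total RNA. The standard Affymetrix protocol primes from poly(A) tails, which most plastid transcripts lack, so plastid signals may not scale with transcript amount as nuclear ones do. Each array has a 2% trimmed mean of 500.0, so differences in total mRNA are hidden, and ratios at low signal are noisy.

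Of 22810 probe sets 64 are controls, 13513 carry 1 gene name, 503 carry several genes (left unnamed), and 8730 are unnamed here. Names came from a TAIR10.1 gene table, which held 13286 of the 13356 genes. It served for names and gene order only, since no build is stated for the files. A gene was represented by its probe set with the highest mean log2 signal. Log2 ratios were taken from floored signals in Python 3.11.15 with pandas 2.3.3, and genes were counted at 2-fold. Only genes above the floor on at least 1 array were counted. With 1 array per genotype no test was run, so no p-value was adjusted. Named genes were the 10 ndh genes, members of the fixed lists, and the genes nearest in pattern (5 to the median profile and 2 to each ndh gene past 2-fold in a line). Members and lists were chosen with earlier results of these data known. The 12 alternatives were 5 scalings, 3 floors (25th and 60th percentile, and none), a pseudocount, a 3-fold threshold, the mean of probe sets and leaving out cross-hybridising sets.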

Additional observations from a re-analysis of the deposited data

How the results depend on the processing

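No called ratio of an ndh gene changed sign under the 12 alternatives. ndhA and ndhE stayed at least 2-fold higher on duf761-1, and ndhE on OE6, under every one of them, as did ndhH on duf761-1. Counts moved with the threshold: at 3-fold, 1 ndh gene was higher on duf761-1 than on NO, 0 on OE6 than on Col-0 and 1 on Col-0 than on NO. With the floor at the 60th percentile, 1 was higher on Col-0 than on NO, since ndhH, weak on NO, drops to 0.95. Without a floor, 4 were higher on duf761-1, the fourth being ndhF (1.19) at signals under the floor. The median log2 ratio of the ndh genes ranged from 0.53 to 0.74 for duf761-1 over NO, from 0.11 to 0.25 for OE6 over Col-0 and from 0.03 to 0.60 for Col-0 over NO. Of single-gene values, 320 moved by less than the noise SD and 4 by more, all 4 of ndhH with the floor at the 60th percentile or the pseudocount. Each ndh gene has 1 probe set without a cross-hybridisation suffix, so the choices on probe sets could not move it. No paired analysis was possible because each genotype has 1 array, and for the same reason no array could be left out.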

Other observations

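The nad genes encode mitochondrial complex I subunits related to those of the ndh genes. Among 9 listed nad genes, 8 had a named probe set, and for 5 the signal passed the floor on some array. nad4, a membrane subunit gene, had signals of 277 in NO and 251 in duf761-1, against 641 in Col-0 and 594 in OE6, so both Nossen arrays were low, with log2 ratios of -0.14 in duf761-1 over NO, -0.11 in OE6 over Col-0 and 1.21 in Col-0 over NO. nad1 had signals of 132 in NO and 80.3 in duf761-1, against 221 in Col-0 and 109 in OE6, with Col-0 the highest and a ratio of -1.02 in OE6 over Col-0. nad9 was above the floor on Col-0 alone (196), as was nad5 (109), and nad4L on duf761-1 alone (106). Of the 5, 0 were at least 2-fold higher in either line than in its wild type, and 1, nad1, was at least 2-fold lower in OE6. nad4L, nad5 and nad9 were above the floor on 1 array each, so their ratios are set or bounded by the floor. The count therefore rests on nad4 and nad1. Over all 7994 genes, 0.663% were higher on duf761-1 than on NO, and 0.475% were higher and 0.475% lower on OE6 than on Col-0. These signals are close to the floor apart from nad4.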
